A study of Mus musculus with 2 samples.

Results

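The genes described here are Trp53, which encodes the transcription factor p53, and 30 genes widely reported as its targets, 31 of the 32285 genes in the count matrices. They were matched by gene symbol, and all 31 symbols were found. They were followed in spleen immune cells of C57BL/6 mice in 2 libraries, 1 labelled RPA1 CKO (conditional knockout) and 1 labelled WT, profiled by droplet single-cell RNA sequencing of 3′ tags. The Cre driver and the deleted part of Rpa1 are not given in the sources used here, and the study's title names T cells. Rpa1 encodes the biggest part of the RPA complex, which coats single-stranded DNA during replication and repair and calls in the ATR checkpoint. Each genotype had a single library, so the genotypes could not be tested against each other, no value has a replicate check, and all differences describe these libraries. Of the 31 genes, 30 had at least 1 unique molecular identifier (UMI, 1 per captured transcript), and Eda2r had 0 in both libraries, which allows up to 3 UMIs each. Trp53 lies at chr11:69580359-69591873 on the + strand (GRCm38).

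In unstressed cells p53 is kept low by Mdm2, a ubiquitin ligase that is itself a p53 target, so the pathway limits its own output. When DNA is broken or replication forks stall, the kinases ATM and ATR and their checkpoint partners stabilise p53, which then binds paired half-sites near its targets. The targets halt the cell cycle (Cdkn1a, Ccng1, Btg2), set off apoptosis (Bax, Bbc3, Pmaip1, Fas), aid repair (Xpc, Ddb2, Polk, Rrm2b) or switch p53 off again (Mdm2, Ppm1d). In lymphocytes p53 is best known as a guard against broken DNA during receptor gene rearrangement and rapid division.

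The promoter windows of 4 targets are shown as examples, picked after the values were seen, of arrest genes (Cdkn1a and Ccng1) and death genes (Bax and Ei24) that had UMIs in each of the 3 cells described below. Each holds letters that match the p53 half-site, a motif of 10 letters that reads the same on both strands. Windows run from 250 bases before to 50 bases after a start site in RefSeq (GRCm38.p6), and capitals mark each half-site. Cdkn1a, whose product p21 inhibits cyclin-dependent kinases, has a window at chr17:29090729-29091028 on the + strand, with half-sites starting 73 and 51 bases before the start site and 12 bases between them.
Cdkn1a: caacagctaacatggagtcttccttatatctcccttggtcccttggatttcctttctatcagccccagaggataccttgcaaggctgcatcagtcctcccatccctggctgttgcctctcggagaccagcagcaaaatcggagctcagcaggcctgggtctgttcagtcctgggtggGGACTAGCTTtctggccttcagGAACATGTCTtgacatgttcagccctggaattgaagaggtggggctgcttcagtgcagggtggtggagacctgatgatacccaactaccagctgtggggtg
Bax, a pore-forming killer of mitochondria, has 1 half-site starting 201 bases before its start site, in chr7:45466849-45467148 on the − strand.
Bax: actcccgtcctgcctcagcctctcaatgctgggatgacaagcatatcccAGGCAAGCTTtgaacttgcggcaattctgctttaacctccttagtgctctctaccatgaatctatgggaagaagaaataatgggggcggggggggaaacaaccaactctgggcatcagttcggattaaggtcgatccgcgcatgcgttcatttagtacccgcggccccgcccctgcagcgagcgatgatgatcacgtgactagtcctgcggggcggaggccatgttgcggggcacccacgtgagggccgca
Ei24, which encodes a membrane protein of the endoplasmic reticulum linked to autophagy and cell death, has 1 starting 10 bases before its start site, in chr9:36797285-36797584 on the − strand.
Ei24: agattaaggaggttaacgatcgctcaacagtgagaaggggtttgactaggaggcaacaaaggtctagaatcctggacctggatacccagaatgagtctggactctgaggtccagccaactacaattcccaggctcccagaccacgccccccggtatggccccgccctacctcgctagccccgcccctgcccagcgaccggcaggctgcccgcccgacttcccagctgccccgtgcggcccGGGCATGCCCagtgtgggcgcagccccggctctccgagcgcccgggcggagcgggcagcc
Ccng1, which encodes cyclin G1, has 1 starting 185 bases before its start site, in chr11:40755237-40755536 on the − strand.
Ccng1: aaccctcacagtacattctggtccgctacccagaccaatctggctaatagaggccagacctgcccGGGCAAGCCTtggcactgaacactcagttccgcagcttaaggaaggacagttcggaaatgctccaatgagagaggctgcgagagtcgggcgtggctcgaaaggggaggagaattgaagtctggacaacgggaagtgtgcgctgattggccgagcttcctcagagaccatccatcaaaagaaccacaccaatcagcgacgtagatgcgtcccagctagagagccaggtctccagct

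Of the 31 genes, 23 had a window in that table, and Pmaip1, Trp53inp1, Zmat3, Tnfrsf10b, Perp, Xpc, Ddb2 and Rrm2b were not matched. A half-site lay in 12 of their 32 windows (37.5%), against 8.36% of all 32851 windows. By gene, 11 of the 23 matched genes (47.8%) held one, namely Trp53, Cdkn1a, Mdm2, Ccng1, Bax, Sesn1, Aen, Rps27l, Polk, Ppm1d and Ei24, against 9.55% of 27025 symbols. A pair of half-sites with at most 13 bases between them was found in 1 window of these genes, that of Cdkn1a, and in 24 of all windows (0.0731%). A match describes letters, not binding, and a window without one says nothing about sites elsewhere.

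The CKO library held 12958 barcodes with 76910129 UMIs (median 4616 per barcode), and the WT library 13291 barcodes with 84240951 UMIs (median 5355). After filters 12610 CKO and 12679 WT cells were kept, and the 31 genes had 81985 UMIs in CKO cells and 82310 in WT cells. The libraries shared 36 barcodes. Cells were classed by marker UMIs alone, and a difference from the study's own cell types may come from that. T cells (at least 2 UMIs of Cd3d, Cd3e and Cd3g) numbered 811 in CKO (6.43% of kept cells) and 3612 in WT (28.5%). They were split into CD4 T cells (284 in CKO, 1231 in WT), CD8 αβ T cells (85 and 1239), γδ T cells (122 and 39), regulatory T cells (22 and 84) and other T cells that passed none of these gates (298 and 1019). B cells numbered 9558 in CKO and 7279 in WT, and NK cells 857 and 353. The targeted gene Rpa1 had 34.5 counts per 1000000 UMIs (CPM) in CKO T cells and 43.2 CPM in WT T cells, a ratio of 0.797 (95% interval 0.677 to 0.935), and 0.938 (0.874 to 1.01) in B cells. Its 3′ tags may lie outside the deleted part, so these levels do not check the labels. The Y-linked gene Eif2s3y also differed between the libraries, at 19.0 CPM in CKO and 90.4 CPM in WT B cells (0.210, 0.196 to 0.225), while Ddx3y, Kdm5d and Uty stood at 1.03, 0.971 and 0.952, and its part in other differences was not tested. All intervals in the text are 95% intervals and cover counting error only, of UMIs or, for shares of cells, of cells.

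The p53 targets stood out most in a handful of dividing T cells. Cells were called cycling when at least 3 of 20 cycle genes, such as Mki67 and Top2a, had a UMI after each cell was thinned to 1000 UMIs. This gave 5 of 811 CKO T cells and 22 of 3607 WT T cells deep enough to be thinned. In the 5 CKO cycling T cells the 30 targets summed to 4786 CPM (4331 to 5276), and in the 22 WT cycling T cells to 866 CPM (783 to 955). In the T cells that were not cycling, the sums were 853 CPM in CKO and 828 CPM in WT. The difference lay in 3 of the 5 CKO cells. They carried 158, 113 and 103 target UMIs in 23, 20 and 23 of the 30 targets, which was 0.696%, 0.807% and 0.765% of their UMIs. The other 2 CKO cycling T cells carried 18 and 12 target UMIs, and the 22 WT cells 6 to 36 (median 18.5) in 4 to 14 targets (median 8), which was 0.0461% to 0.144% of their UMIs. So 3 CKO cells lay above every WT cycling T cell, and the other 2 lay within the WT range. The depth of the 3 cells, at 22694, 13996 and 13460 UMIs, lay within that of the WT cycling T cells (7135 to 41086, median 19452.5). Thinned to 1000 UMIs, the 3 cells still showed 5, 7 and 8 targets, against 0 to 5 (median 1) in the WT cycling T cells. Cells of 1 library are not replicates, so these counts describe 1 CKO library.

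**Figure D1:**
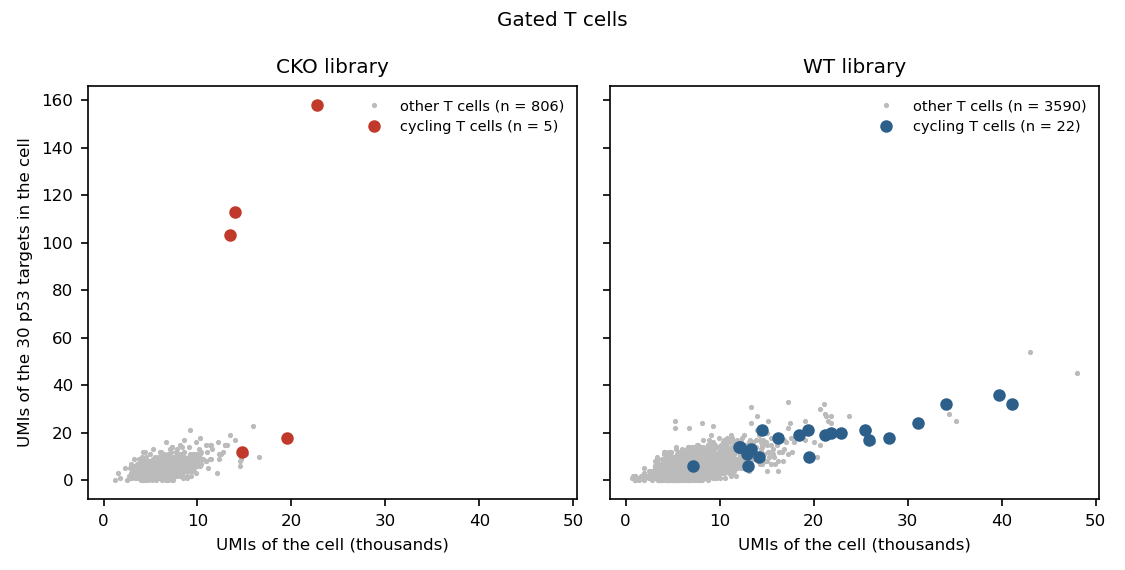
Target UMIs (y axis, UMIs of the 30 p53 targets in a cell) against depth (x axis, UMIs of the cell in units of 1000) for every gated T cell, CKO library left and WT library right. Large points are cycling T cells and small grey points all other T cells. The 3 CKO cells at 103, 113 and 158 target UMIs sit above all other T cells of both panels.

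The 3 cells were chosen by having at least 10 Cdkn1a UMIs, so the Cdkn1a values describe that choice and are no finding. Among the arrest genes, Cdkn1a had 28, 13 and 11 UMIs in the 3 CKO cells, 0 in the other 2 CKO cycling T cells and 0 in each of the 22 WT cycling T cells. No WT cell of any class had more than 8 Cdkn1a UMIs. Psrc1, which encodes a spindle protein and is a mitotic gene as well as a target, had 8, 8 and 5 UMIs, against 0 to 4 in the WT cycling T cells. Ccng1 had 6, 8 and 1, against 0 to 2. Btg2, an antiproliferative gene that also answers to cell handling, had 5, 1 and 5 UMIs, against 0 to 10, so it did not separate the cells.

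Of the apoptosis genes, Bax, Bbc3, Ei24, Aen and Fas were higher in the 3 cells than in every WT cycling T cell, and Pmaip1, Tnfrsf10b, Pidd1 and Perp were not. Bax had 24, 17 and 11 UMIs, against 0 to 9 (median 1.5) in the WT cycling T cells. Bbc3, which encodes the BH3-only killer Puma, had 2, 11 and 3, against 0 in all 22. Ei24 had 9, 8 and 11, against 0 to 3. Aen, which encodes a nuclease of apoptotic cells, had 6, 6 and 5 UMIs, against 0 to 1, and the death receptor gene Fas 6, 3 and 4, against 0 to 2. Pmaip1, which encodes Noxa, had 4, 0 and 2 UMIs, against 0 to 1, and overlapped with the WT cells through the CD4 T cell. Tnfrsf10b, a death receptor gene, and Pidd1, which encodes a scaffold for caspase 2, had at most 1 UMI in any of the 3 cells. Perp, which encodes a membrane protein linked to p53-driven death, had 0.

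Genes that restrain p53 or the signals downstream of it followed, together with Trp53inp1 and Zmat3, which have other roles. Phlda3, which encodes an inhibitor of Akt, had 10, 9 and 9 UMIs in the 3 cells, against a single UMI in all 22 WT cycling T cells. Mdm2 had 5, 3 and 4 UMIs, against 0 to 2. Ppm1d, which encodes the phosphatase Wip1, had 6, 3 and 2, against 0 to 2, and Trp53inp1, a cofactor of stress-activated p53, had 8, 2 and 5, against 0 to 3. In UMIs these last genes met the WT cells at their low end, whereas Phlda3 and Mdm2 did not. Zmat3, an RNA-binding splicing regulator, had 1, 1 and 9 UMIs, against 0 to 1, so 1 cell held most of it.

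The repair and metabolic targets were mixed. Rps27l, a ribosomal protein gene induced by p53, had 17, 11 and 5 UMIs, against 0 to 13 (median 5.5) in the WT cycling T cells, and overlapped with them. Polk, a polymerase that copies past damaged bases, had 3, 4 and 2, against 0 to 2. Sesn2, a stress sensor that restrains mTORC1, had 4, 1 and 1, against 0 to 3. Xpc and Ddb2, which find ultraviolet damage, had 0 UMIs and 1 UMI over the 3 cells, and Rrm2b, a ribonucleotide reductase subunit, had 2. Sesn1, a relative of Sesn2, had 2 UMIs over the 3 cells, the repair nuclease gene Ercc5 had 4 and the electron carrier gene Fdxr had 2, and single WT cycling T cells reached 4, 4 and 2. Plk2, a kinase of centrosome duplication, summed to 4 UMIs. Gdf15, a secreted stress factor, and Eda2r, a receptor gene, had 0. The mRNA of Trp53 was at 2 UMIs in each of the 3 cells, inside the WT range of 0 to 7, so Trp53 mRNA itself did not stand apart. Per UMI of the cell, the lowest of the 3 cells lay above every other cycling T cell for 12 of the 30 targets: Cdkn1a, Mdm2, Bax, Bbc3, Phlda3, Zmat3, Aen, Fas, Psrc1, Polk, Ppm1d and Ei24. Cdkn1a, which the choice of cells used, is one of them. In UMIs, the low end of Zmat3, Polk and Ppm1d met the WT range, so these stood clear only per UMI of the cell. The same count was not made over all genes, so the 12 of 30 has no background share beside it.

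**Figure D2:**
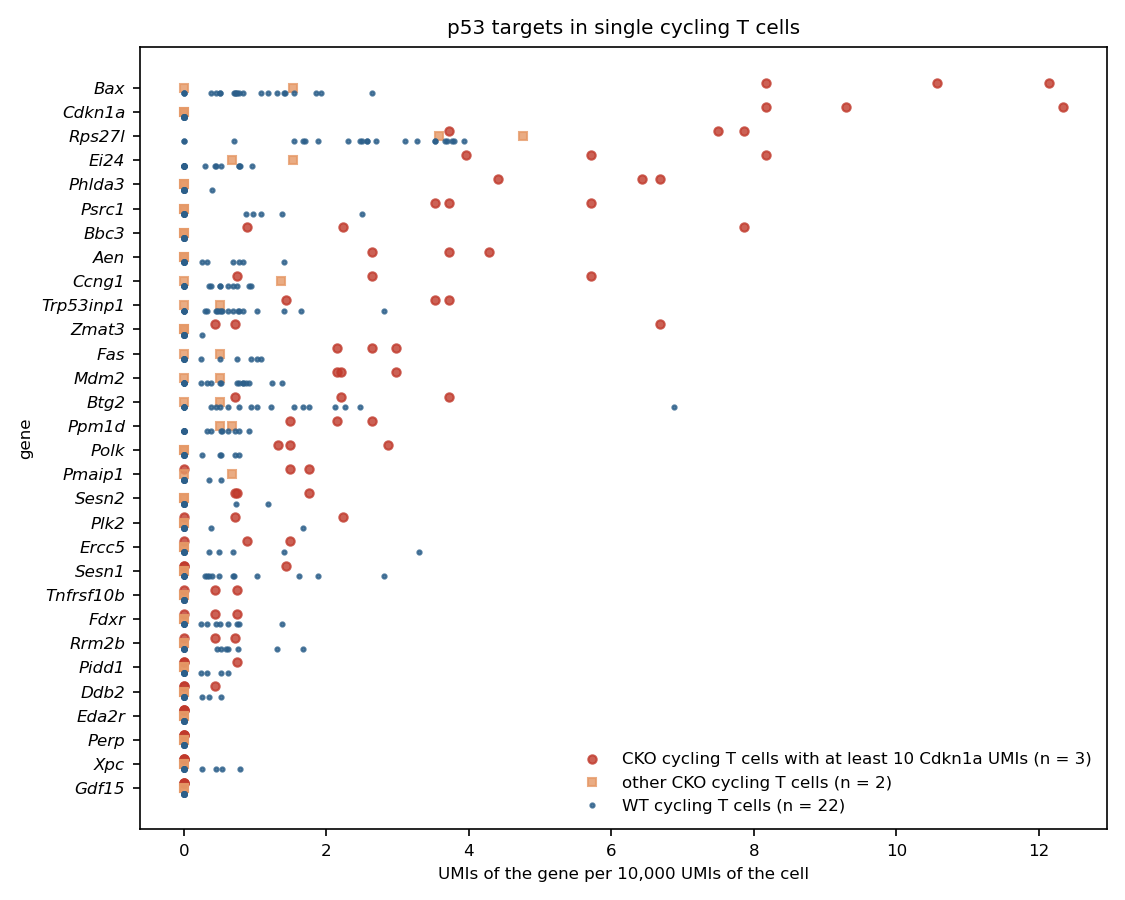
Each row is a p53 target and each point a cycling T cell (x axis, UMIs of the gene per 10000 UMIs of the cell). Round red points are the 3 CKO cells with at least 10 Cdkn1a UMIs, orange squares the other 2 CKO cycling T cells and blue points the 22 WT cycling T cells. For 12 of the 30 targets, led by Cdkn1a, Bax, Ei24 and Phlda3, the 3 red points lie clear of all other points. The same count was not made over all genes.

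The 3 cells came from different T cell gates. They passed as a CD8 αβ T cell, a CD4 T cell and an other T cell, with 29, 20 and 17 UMIs of the Cd3 genes, against 17 to 64 in the WT cycling T cells. The CD4 call rests on 1 Cd4 UMI. The T cell receptor gene Trac had 3, 0 and 1 UMIs, against 3 to 66 (median 14.5) in the WT cycling T cells, while Trbc2 had 16, 10 and 30, against 3 to 190 (median 40). The mitochondrial share was 0.972% to 2.19%, against 1.64% to 3.60%. Each of the 3 cells had 1 UMI of a B cell marker, as did the other 2 CKO cycling T cells. In the WT, 13 of 22 cycling T cells had at least 1, and over all T cells 27.4% had one in CKO and 28.2% in WT. The CD8 αβ T cell also had 22 UMIs of NK markers, and the remaining pair had 0. None of the 3 was in the top 10% of doublet scores (Scrublet) of its library. A gate that allows no B cell marker UMI drops all 3, and a limit of 5000 genes drops the CD8 αβ T cell. The part of free RNA in these cells was not tested. Rpa1 itself had 4, 2 and 0 UMIs, against 0 to 6 in the WT cycling T cells.

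The cycle genes of the 3 cells were not all at WT levels. These remarks, as well as the choice of at least 10 Cdkn1a UMIs, were made after the values had been seen. Over the 3 cells Mki67 stood at 1316 CPM and Top2a at 1735 CPM, against 1579 and 1508 CPM over the WT cycling T cells. Of the 20 cycle genes 17 were lower over the 3 cells than over the WT cycling T cells, and 14 were lower over the other 2 CKO cycling T cells. Cenpf (59.8 CPM), Ube2c (140 CPM) and Ccnb1 (0 CPM), which act in mitosis, stood against 722, 894 and 187 CPM in WT. Other mitotic genes were nearer, with Birc5 at 778 CPM against 879 CPM, and Aurkb (160 against 146 CPM) and Spc25 (219 against 157 CPM) were higher. In the other 2 CKO cycling T cells Cenpf stood at 350 CPM, Ube2c at 321 CPM and Ccnb1 at 0. The replication genes Mcm3 (518 CPM) and Pcna (638 CPM) and the checkpoint kinase gene Chek1 (160 CPM) were higher, against 114, 317 and 25.8 CPM in WT. Pcna is also a reported p53 target. Further reported targets, 23 genes such as Ddit4 and Gtse1, were kept as a separate list that includes Pcna. They had 42, 24 and 31 UMIs in the 3 cells, against 7 to 34 (median 18) in the WT cycling T cells. In UMIs, with no regard to depth, 1 of the 3 lay above the WT range. Pooled per UMI, the list stood at 1934 CPM over the 3 cells and 915 CPM over the WT cycling T cells. Over the other 2 CKO cycling T cells it stood at 992 CPM.

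The sums over T cells rest on these 3 cells for several genes. Summed over all gated T cells, 25 of the 31 genes were measured, which means at least 10 counts expected in the library with fewer UMIs. A difference counts here as past 1.5-fold in either direction. Of the 25, 3 were higher in CKO (Cdkn1a, Phlda3 and Zmat3) and 1 was lower (Tnfrsf10b), beside 5.5% and 3.07% of all 10232 genes measured in T cells. Cdkn1a had 54 UMIs in 811 CKO T cells and 18 UMIs in 3612 WT T cells, a ratio of CPM of 15.2 (8.79 to 27.6). The 3 cells hold 52 of the 54 UMIs, 96.3%, with 0.977% of the UMIs of the CKO T cells. Phlda3 had 36 and 25 UMIs, a ratio of 7.31 (4.27 to 12.7), with 28 of the 36 in the 3 cells. Both genes entered the measured set through these cells. Psrc1 had 22 and 26 UMIs, with 21 of the 22 in the 3 cells. Without the 3 cells Cdkn1a had 2 and 18 UMIs, a ratio of 0.569 (0.0641 to 2.38), and Phlda3 had 8 and 25, a ratio of 1.64 (0.639 to 3.75). Stricter gates, which also drop the 3 cells, left both genes higher in CKO, with too few counts to be measured. Phlda3 then had 13 and 19 UMIs, a ratio of 3.296 (1.496 to 7.03). Cdkn1a had 6 and 11 UMIs, a ratio of 2.63 (0.798 to 7.75), whose interval holds 1. Both CKO counts exceed those left without the 3 cells, so the stricter gates also took in other cells. Zmat3 was at 1.501 (1.12 to 1.98) with them and 1.26 (0.923 to 1.70) without them. Tnfrsf10b had 7 and 54 UMIs, a ratio of 0.658 whose interval (0.252 to 1.45) holds 1. Bbc3 stood at 0.714 (0.544 to 0.924) with the 3 cells and at 0.549 (0.403 to 0.734) without them, which put it past the threshold.

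Across the whole T, B and NK classes, the pathway's levels were close between the libraries. In CD4 T cells 20 genes were measured, 1 was past 1.5-fold higher and 0 lower in CKO, beside 3.49% and 5.53% of all 8426 genes measured, so the share past the threshold was near that of other genes. The median log2 ratio of the 20 was 0.15, against 0.02 for all genes, and 17 of the 20 ratios were at or above 1. The median was 0.027 without the target-rich CD4 T cell and -0.16 with every cell thinned to 1000 UMIs. The lowest ratio was Xpc at 0.804. The 1 gene was Polk, with 27 UMIs in CKO and 78 in WT (15.7 and 9.25 CPM, a ratio of 1.70, 1.05 to 2.66). Of its 27 CKO UMIs 4 came from the CD4 T cell described above, and without that cell the ratio was 1.46 (0.872 to 2.34). The most abundant members were nearly level. Btg2 stood at 152 CPM in CKO and 135 CPM in WT, Trp53 at 139 and 135 CPM, and Bax at 127 and 121 CPM. Cdkn1a had 14 UMIs in CKO CD4 T cells, 13 of them in 1 cell, and 2 in WT.

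In CD8 αβ T cells, where the CKO class held 85 cells, 18 genes were measured, 2 were higher and 1 lower in CKO, beside 6.32% and 4.77% of all 5867 genes. The median log2 ratio was 0.14, against 0.06 for all genes, and -0.0037 without the target-rich CD8 αβ T cell. Ei24 had 28 and 236 UMIs (45.2 CPM in CKO and 23.6 CPM in WT, a ratio of 1.91, 1.24 to 2.84), and 9 of the 28 lay in the CD8 αβ T cell described above. Ppm1d had 18 and 171 UMIs, a ratio of 1.70 (0.982 to 2.76), with 6 of the 18 in that cell. Without it these ratios were 1.35 (0.797 to 2.15) and 1.17 (0.595 to 2.11), so neither stayed past 1.5-fold. Bbc3 was lower, with 7 UMIs in CKO and 237 in WT (11.3 and 23.7 CPM, a ratio of 0.476, 0.189 to 0.997), and 0.353 (0.114 to 0.836) without the cell. Bax stood at 174 CPM in CKO and 129 CPM in WT, with 24 of its 108 CKO UMIs from that cell. Trp53 was at 144 and 147 CPM and Btg2 at 129 and 101 CPM. NK marker genes were also higher in the CKO class (Klre1 at 61.3 CPM, against 16.1 CPM in WT), and S100a6, a marker of memory T cells, was at 443 CPM, against 56.9 CPM. Their part in these ratios was not tested.

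In B cells 28 genes were measured and 0 were past 1.5-fold in either direction, beside 3.65% higher and 2.97% lower of all 12955 genes, with a median log2 ratio of 0.09, against 0.04 for all genes. This class had the most UMIs, so the intervals are the narrowest. Bbc3 was the highest ratio at 1.43 (1.14 to 1.79), with 227 UMIs in CKO and 123 in WT. Fas was the lowest at 0.735 (0.618 to 0.875), with 258 and 271 UMIs. Of these, 14 in CKO and 46 in WT lay in cycling B cells, and in other B cells Fas stood at 4.81 and 5.69 CPM. Btg2 stood at 205 CPM in CKO and 169 CPM in WT (1.21, 1.18 to 1.25), Trp53 at 148 and 135 CPM (1.10, 1.06 to 1.14) and Bax at 130 CPM in both. Cdkn1a was at 2.52 CPM in CKO and 2.04 CPM in WT. Phlda3, which was rare here, had a ratio of 1.24. The other 26 measured genes lay between the ratios of Fas and Bbc3. Of the 3 that were not measured, Perp had 0 UMIs in CKO and 12 in WT, all in 1 cell.

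In NK cells 19 genes were measured, 1 was higher and 0 lower in CKO, beside 4.88% and 3.67% of all 8753 genes, with a median log2 ratio of 0.12 against 0.00 for all genes. Ddb2 had 38 UMIs in CKO and 4 in WT (9.52 and 2.38 CPM, a ratio of 4.004, 1.44 to 15.4), with at most 3 UMIs in 1 CKO cell. Zmat3 followed at 1.49, and Trp53inp1 at 1.38 (1.08 to 1.77). Btg2 stood at 279 CPM in CKO and 254 CPM in WT, Rps27l at 192 and 174 CPM, and Bax at 135 and 130 CPM. Cycling NK cells numbered 12 of 856 in CKO and 1 of 350 in WT, and Klrg1, a gene of mature NK cells, stood at 175 CPM in CKO and 109 CPM in WT. The Ddb2 ratio was 4.05 (1.46 to 15.6) without the cycling cells, and the part of maturity was not tested.

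**Figure D3:**
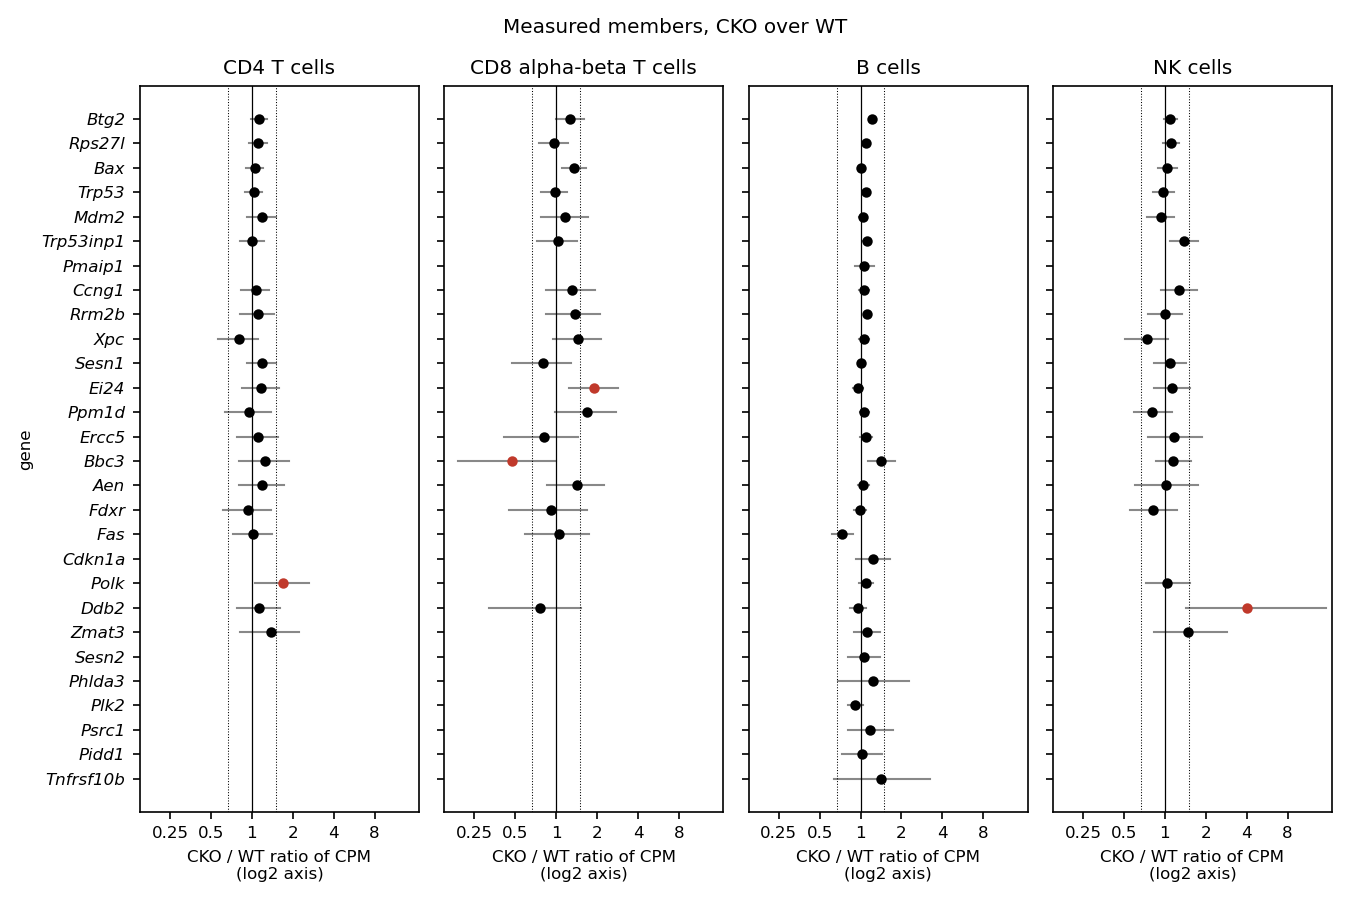
Ratio of CPM, CKO over WT (x axis, log2 axis), of each measured gene in CD4 T, CD8 αβ T, B and NK cells. Bars are 95% counting intervals, dotted lines mark 1.5-fold in each direction, and red marks a ratio past it whose interval leaves out 1. Red points are Polk in CD4 T cells, Ei24 and Bbc3 in CD8 αβ T cells and Ddb2 in NK cells.

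The share of cells that carried several targets at once rose with the depth compared. For at least 2 and at least 3 targets, each CKO over WT ratio at 2000 UMIs lay inside its interval at 1000 UMIs in the 4 main classes. With at least 3 targets in B cells it was 1.10 (0.947 to 1.28) at 1000 and 1.17 at 2000 UMIs. With at least 2 in NK cells it was 1.24 (0.968 to 1.61) and 1.21. After thinning to 1000 UMIs, at least 3 of the 30 targets were seen in 3.87% of CKO and 3.82% of WT CD4 T cells, and in 4.71% (1.30 to 11.6) and 3.39% (2.46 to 4.56) of CD8 αβ T cells. In B cells the shares were 4.54% (4.13 to 4.97) and 4.12% (3.68 to 4.60), and in NK cells 8.29% and 7.14%. At 1000 UMIs the intervals of the 2 libraries overlapped in each of these classes. After thinning to 2000 UMIs they did not overlap in B cells, where the shares were 20.1% (19.3 to 20.9) in CKO and 17.1% (16.25 to 18.001) in WT, and the ratio was 1.17 (1.09 to 1.26). At least 2 targets were then seen in 49.1% of CKO and 44.7% of WT B cells, and in 64.6% (61.3 to 67.8) of CKO and 53.3% (47.9 to 58.7) of WT NK cells, again with no overlap. These intervals take the cells of 1 library as their units, and cells are not replicates. Overlap or its lack thus describes the 2 libraries and does not test the genotypes. For at least 3 targets at 2000 UMIs the NK intervals overlapped, at 30.3% (27.2 to 33.5) and 26.7% (22.1 to 31.7). For at least 5 the NK shares were 3.08% in CKO and 3.48% in WT. At 1000 UMIs the NK shares with at least 2 targets were 30.1% (27.1 to 33.3) and 24.3% (19.9 to 29.1). In CD4 T and CD8 αβ T cells the intervals overlapped at both depths. Without thinning, at least 3 targets were seen in 65.2% of CKO and 63.9% of WT B cells, at median depths of 4381 and 4634.5 UMIs, in 73.9% and 75.4% of NK cells, in 76.1% and 78.7% of CD4 T cells and in 72.9% and 85.5% of CD8 αβ T cells. Over all kept cells, 71 in CKO and 118 in WT were under 1000 UMIs, and 150 and 190 were under 2000 UMIs, and these were left out. No class lacks these genes as a group, so the share that free RNA gives was not measured.

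Cycling B cells, NK cells and monocytes or macrophages did not show sums of the size seen in the CKO cycling T cells. Cycling B cells numbered 74 in CKO and 36 in WT, and their summed target level was 978 CPM and 924 CPM, beside 896 and 827 CPM in other B cells. In the 12 cycling NK cells of the CKO the sum was 946 CPM, beside 1152 CPM in other NK cells. In cycling monocytes or macrophages it was 1369 CPM in 10 CKO cells and 1029 CPM in 8 WT cells, beside 1315 and 1302 CPM in the other cells of that class.

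A few other cells of both libraries held many target UMIs. Among cells with at least 5000 UMIs, a target share of at least 0.4% of UMIs, a limit set after the values were seen, was reached by 3 of 577 CKO T cells (0.520%, 0.107 to 1.51) and 2 of 3041 WT T cells (0.0658%, 0.00797 to 0.237). The 3 CKO cells are those described above. The 2 WT cells were CD8 αβ T cells of 5251 and 5200 UMIs with 25 and 22 target UMIs in 14 and 10 targets, Phlda3 at 3 and 2 UMIs and Cdkn1a at 0 and 2. In B cells 5 of 3648 CKO and 1 of 2943 WT cells reached it. The highest CKO B cell had 76 target UMIs in 17 targets, with Psrc1 at 10, Cdkn1a at 7 and Phlda3 at 6, and the next had 60 in 16 targets, with Cdkn1a at 11. Neither had a UMI in 2 or more cycle genes. The WT B cell had 71 in 8 targets, of which Rps27l held 38 and Perp 12, and it had 0 of Cdkn1a and Phlda3. This cell had 3 B marker UMIs, the minimum of the gate, against 41 to 87 in 4 of the CKO B cells, so its class is doubtful. Those 12 are the whole Perp signal of WT B cells. A WT plasma cell of 40545 UMIs had 179 target UMIs in 16 targets, more than any of the CKO cells, with Trp53inp1 at 54, Rps27l at 41 and Cdkn1a at 5, which was 0.441% of its UMIs. A WT monocyte or macrophage had 21 in 7 targets (0.417%), and no CKO cell of either class reached 0.4%. In NK cells 0 of 243 CKO and 0 of 131 WT cells reached it, which allows shares of up to 1.51% and 2.78%. At a limit of 0.3%, 3 of 577 CKO and 3 of 3041 WT T cells and 9 of 3648 and 4 of 2943 B cells reached it. In monocytes or macrophages these were 2 of 161 and 3 of 121, and in conventional dendritic cells 0 of 83 and 2 of 85. A WT cell left out of the classes for passing several gates had 36 target UMIs in 13 targets (0.396%), with Cdkn1a at 5. At least 10 Cdkn1a UMIs were seen in 4 CKO cells, the 3 T cells and 1 B cell, and in 0 WT cells.

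Many of the genes had a class in which they were highest in both libraries, among the 8 classes that held 50 or more cells in each. Cdkn1a was low in WT lymphocytes (at most 2.38 CPM) and highest in monocytes or macrophages, at 48.8 CPM in CKO and 44.1 CPM in WT. Pmaip1 was highest in conventional dendritic cells (145 CPM in CKO, 178 CPM in WT) and next in monocytes or macrophages (88.0 and 159 CPM), and no more than 9.68 CPM in any of the lymphocyte classes. Bbc3 stood at 43.8 and 38.0 CPM in NK cells and at 4.36 and 3.06 CPM in B cells. In CKO it was also at 44.8 CPM in monocytes or macrophages, against 21.3 CPM in WT. Pmaip1 and Bbc3 both encode BH3-only proteins. Xpc was highest in neutrophils (86.4 and 57.0 CPM) and Rrm2b in B cells (64.4 and 57.6 CPM), and both lay clear of the next class in each library. Polk was highest in NK cells (26.1 and 25.0 CPM), Ddb2 in CD4 T cells (22.7 and 20.2 CPM), Fas in other T cells (31.8 and 27.2 CPM) and Plk2 in B cells (9.95 and 10.8 CPM). Neighbours in these orders often overlapped in their intervals. Btg2 was highest in conventional dendritic cells (321 and 284 CPM), and Rps27l in monocytes or macrophages in CKO (345 CPM) and in conventional dendritic cells in WT (290 CPM), with overlapping intervals between those classes. Trp53 was lowest in neutrophils (43.6 and 27.2 CPM) and ran from 106 to 148 CPM over the lymphocyte classes of both libraries. In plasma cells, with 46 CKO and 47 WT cells, Trp53inp1 stood at 294 and 262 CPM. Gdf15 had 5 UMIs in all CKO and 1 in all WT barcodes, and Perp 9 and 21.

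**Figure D4:**
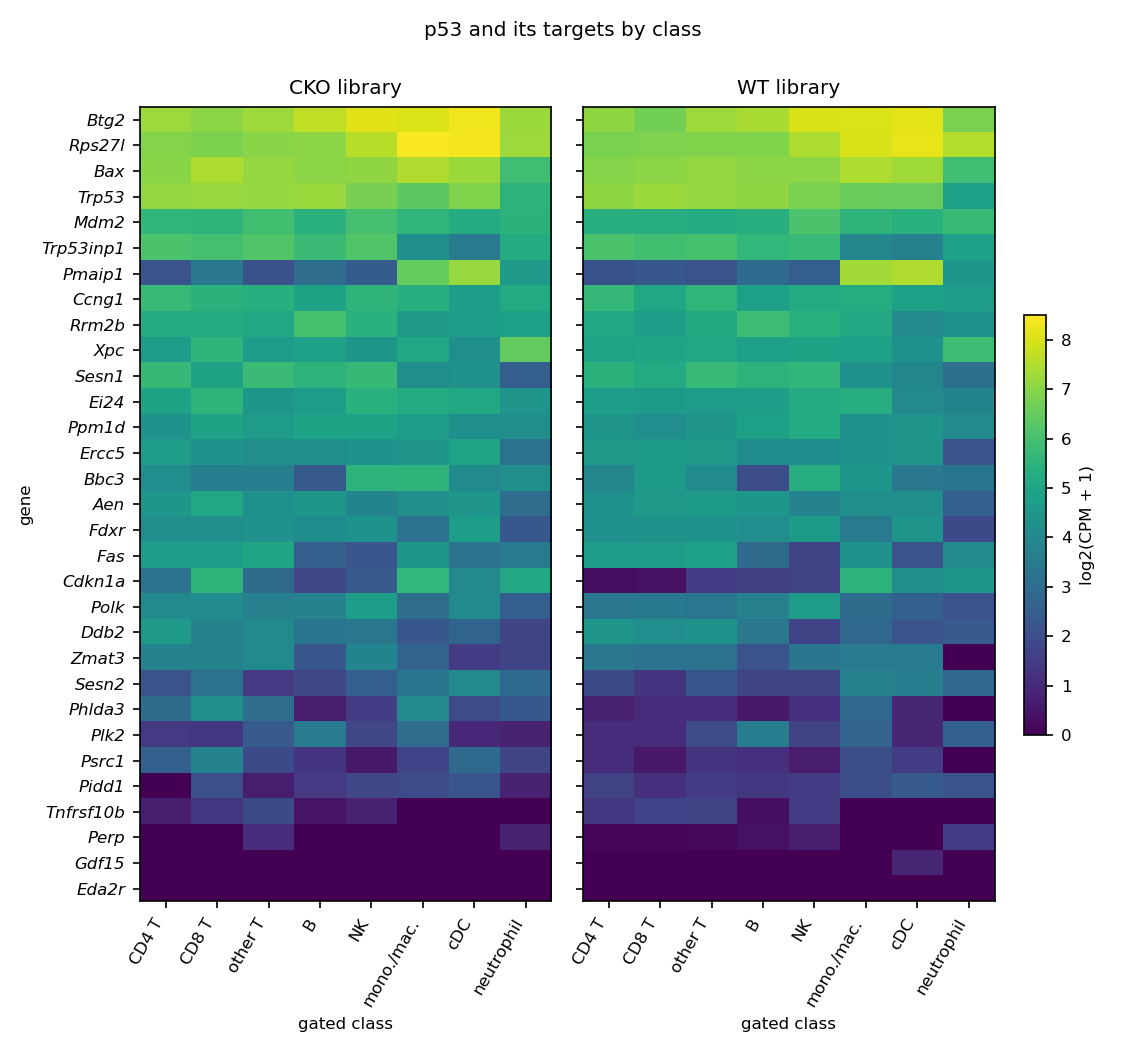
Level of each of the 31 genes (rows) as log2(CPM + 1) in 8 gated classes (columns), CKO library left and WT library right. The same genes are bright in both panels, and Cdkn1a in CD8 αβ T cells, at 45.2 CPM in CKO, comes from 1 CKO cell with 28 UMIs.

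Smaller classes showed their own differences. In monocytes or macrophages 21 genes were measured, 2 were higher and 1 lower in CKO, beside 5.82% and 7.78% of 8253 genes. Bbc3 had 80 UMIs in CKO and 27 in WT (44.8 and 21.3 CPM, a ratio of 2.11, 1.35 to 3.40), with at most 4 UMIs in a CKO cell. Phlda3 had 27 and 8 UMIs (2.40, 1.06 to 6.12), and Pmaip1 157 and 202 (0.553, 0.446 to 0.685). The make-up of this class differed too, with Ly6c2, a marker of classical monocytes, at 1137 CPM in CKO and 681 CPM in WT, and Flt3, a dendritic cell marker, at 8.41 and 22.8 CPM. Their part was not tested. In other T cells 20 genes were measured, 2 were higher and 0 lower, beside 5.65% and 4.32% of 8686 genes. Mdm2 had 109 and 249 UMIs there (59.8 and 36.8 CPM, 1.63, 1.29 to 2.05), and 1.58 (1.24 to 1.99) without the target-rich cell. Zmat3 had 29 and 55 UMIs (1.96, 1.20 to 3.13), with 9 of the 29 in that cell, and 1.36 (0.773 to 2.31) without it. In conventional dendritic cells 4 of 20 genes were higher and 0 lower, beside 9.05% and 7.03% of 7880 genes, with Polk at 3.03 (1.14 to 9.37) and Ei24 at 2.20 (1.20 to 4.18). In neutrophils 5 of 15 were higher and 0 lower, beside 11.3% and 6.36% of 6965 genes, with Trp53 at 1.60 (1.01 to 2.58) and Xpc at 1.51 (1.10 to 2.09). In plasma cells 4 of 12 were higher and 1 lower, beside 25.2% and 6.47% of 5490 genes. In regulatory T cells 0 of 5 were higher and 2 lower (Trp53inp1 and Rps27l), beside 7.7% and 18.4% of 1558 genes, and in γδ T cells 0 of 6 were higher and 1 lower (Sesn1), beside 6.3% and 12.3% of 3459 genes. In plasmacytoid dendritic cells 1 of 9 was higher (Trp53inp1) and 1 lower (Rrm2b), beside 10.7% and 9.42% of 4503 genes.

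The regulators of p53 were a list of 20 genes that includes its kinases and Mdm4. In CD4 T cells 0 of 15 measured were past 1.5-fold, beside 3.49% higher and 5.53% lower of all genes, and in NK cells 1 of 15 was higher, beside 4.88%. In CD8 αβ T cells 2 of 13 were lower, beside 4.77% of all genes, with Atr at 6 UMIs in CKO and 333 in WT (0.291, 0.106 to 0.639) and Atm at 24 and 615 (0.629, 0.4001 to 0.945). In B cells 1 of 18 was higher, beside 3.65%, namely Cdkn2a, whose product p19Arf blocks Mdm2, at 34 and 10 UMIs (2.63, 1.27 to 5.96). Of the further reported targets, Ddit4, which also answers to hypoxia and glucocorticoids, was lower in CKO, at 47.1 CPM against 96.2 CPM in CD4 T cells (0.489, 0.384 to 0.615) and at 19.8 CPM against 32.2 CPM in B cells (0.613, 0.564 to 0.665). No other measured gene of that list was past 1.5-fold with an interval clear of 1 in the 4 main classes. The 3 RPA trimer genes were within 1.5-fold in all 4 main classes. Rpa1 was lower in other T cells, at 52 UMIs in CKO and 304 in WT (0.636, 0.464 to 0.855). In γδ T cells it went the other way, at 39 and 3 UMIs (3.54, 1.13 to 17.9), with too few counts to be measured. Rpa3 was at 2.40 (0.953 to 7.74) in γδ T cells.

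Of all measured genes, 5.53% were past 1.5-fold lower in CD4 T cells, and 6.32%, 4.88% and 3.65% higher in CD8 αβ T, NK and B cells. Cycle genes differed between the libraries in these classes. In CD4 T cells 15 of 15 measured were lower in CKO, such as Top2a (0.366, 0.242 to 0.534), Mki67 (0.353, 0.218 to 0.545), Birc5 (0.336, 0.189 to 0.558) and Ube2c (0.0680, 0.0139 to 0.201), and 27 of the 29 Top2a UMIs of that CKO class came from 1 cell. In CD8 αβ T cells Top2a (3.50, 2.51 to 4.80) and Mki67 (2.53, 1.75 to 3.58) were higher, with 39 of 48 and 34 of 38 CKO UMIs in 1 cell. In NK cells 19 of 19 were higher, such as Top2a (3.84, 2.85 to 5.26), Mki67 (5.11, 3.56 to 7.58) and Prc1 (2.95, 1.90 to 4.79), while Birc5 had 140 UMIs in CKO and 1 in WT. In B cells 8 of 20 were higher, such as Mki67 (1.60, 1.49 to 1.71) and Cenpf (1.66, 1.49 to 1.86). Immediate early genes, which answer to tissue dissociation as Btg2 and Plk2 do, were within 1.5-fold in all 11 measured in B cells. Of all genes in that class 3.65% were higher and 2.97% lower. In CD8 αβ T cells 4 of 8 immediate early genes were lower in CKO, beside 4.77% of all genes. They were Jun at 0.636 (0.454 to 0.869), Zfp36 at 0.629 (0.419 to 0.912), Fos at 0.421 (0.200 to 0.783) and Egr1 at 0.402 (0.160 to 0.839). In CD4 T cells Nr4a1 was higher (1.56, 1.17 to 2.05) and Fosb lower (0.237, 0.0853 to 0.531), and in NK cells Fosb (0.504, 0.342 to 0.746) and Nr4a1 (0.547, 0.368 to 0.818) were lower. The part of cell handling in the ratios of the p53 genes was not tested.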

How the data were processed

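The authors deposited a matrix of raw UMI counts per gene and cell barcode for each library, made with the Chromium Next GEM Single Cell 3′ v3.1 kit per the labels. The submitters' processing notes name mm10, Cell Ranger 5.0.0 and Seurat 4.0.3, and per the file headers the deposited count matrices came from Cell Ranger 6.0.2. Cells with 200 to 6000 genes and under 10% mitochondrial UMIs were kept. Classes were gated on marker UMIs (at least 2 of the Cd3 genes for T cells and of Ncr1, Klrb1c and Klre1 for NK cells, at least 3 of the markers for other lineages). CD4 T cells had Cd4 and no Cd8a or Cd8b1, CD8 αβ T cells had Cd8a or Cd8b1 with no Cd4 or Trdc, γδ T cells had Trdc and no Trac, and regulatory T cells had Foxp3. Where markers are shared by design, 1 gate took precedence: T over NK, plasma over B, neutrophil and both dendritic classes over monocyte or macrophage, and plasmacytoid over conventional dendritic. Cells that still passed several lineages, 6.42% in CKO and 7.14% in WT, were left out as possible doublets, so a kept T cell may carry NK markers. This precedence was set after a first gating.

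Counts were summed per class and library and divided by the class total, all genes at once. CPM have exact Poisson intervals, ratios exact conditional binomial intervals and shares Clopper-Pearson intervals, at 95%. A gene at 0 counts in 1 library was set to 3 counts over the class for a bound. No fit across genes, p-value or set test was used, since each genotype has 1 library and cells are not replicates. The procedure was tested on simulated data.

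The members and lists were chosen with earlier results of these data known. In each main class (CD4 T, CD8 αβ T, B and NK cells), members past 1.5-fold with an interval clear of 1 were named in full, then the 3 with most UMIs. From each companion list up to 4 genes were named in that way, plus Rpa1. The union of all T cells, the limits of 10 Cdkn1a UMIs and 0.4% target UMIs, and remarks on single cycle, replication and receptor genes were chosen after their values were seen. Other members named in the smaller classes and all T cells were also chosen after their values were seen. The half-site search used the motif's usual letters in RefSeq windows of GRCm38.p6. Tools were Python 3.11.15 with numpy 2.4.6, scipy 1.17.1, pandas 2.3.3, matplotlib 3.10.9 and scanpy 1.11.5 (Scrublet scores), and edgeR 4.0.16 for TMM factors as an alternative scaling. Alternatives changed gates, cell filters, scaling, depth, the limit on expected counts, and the use of cycling or target-rich cells.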

Additional observations from a re-analysis of the deposited data

Results flagged for a closer look

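Bbc3, which encodes the BH3-only protein Puma, differed in opposite directions between 2 classes of cells. Its CKO over WT ratio was 0.476 (95% counting interval 0.189 to 0.997) in CD8 αβ T cells, from 7 UMIs in 85 CKO cells and 237 UMIs in 1239 WT cells. In monocytes or macrophages the ratio was 2.11 (1.35 to 3.40), from 80 UMIs in 211 CKO cells and 27 UMIs in 158 WT cells. The difference between the classes was not tested, since each genotype has 1 library.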

How the results depend on the processing

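No paired analysis was possible because each genotype has 1 library. Over 109 member ratios and 10 alternatives, 1000 values were had. Of these, 910 stayed inside the counting interval of the reported ratio and 78 left it. The other 12 belonged to ratios reported past 1.5-fold and lay on the other side of 1. Ratios reported within 1.5-fold that crossed 1 were not counted apart, such as Bax in CD4 T cells at 0.866 when thinned. Of 140 values for 24 summaries, 90 were the same and 50 moved. Medians were taken as moved past 0.1 on the log2 scale. Where not stated, the cause was not tested.

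Members past 1.5-fold in CD4 T cells numbered 1 as reported, 2 under stricter gates, 5 at a minimum of 1 count, and 0 without the top cell of each gene, when thinned to 1000 UMIs, without cycling cells, at 30 expected counts or without the 3 target-rich CKO T cells. The shares over all genes moved as well. Of all genes, 3.49% were higher and 5.53% lower as reported, and 5.49% and 4.82% under stricter gates. The shares were 2.17% and 7.69% without each top cell, 5.71% and 6.64% when thinned, and 3.22% and 5.15% without cycling cells. At 30 expected counts they were 1.34% and 2.41%, and without the 3 cells 3.23% and 5.82%. In CD8 αβ T cells members past 1.5-fold numbered 3 as reported, 1 under stricter gates, without each top cell or without cycling cells, 0 when thinned or at 30 expected counts, and 12 at 1 count. Of all genes, 6.32% were higher and 4.77% lower as reported, and 6.24% and 5.78% under stricter gates. The shares were 2.51% and 9.97% without each top cell and 5.38% and 5.27% without cycling cells. When thinned they were 5.90% and 5.90%, and at 30 expected counts 1.95% and 1.84%. In B cells members past 1.5-fold numbered 0 as reported and 1 when thinned or at 1 count. Of all genes, 3.65% were higher and 2.97% lower as reported. The shares were 3.09% and 2.51% when thinned and 6.68% and 5.43% at 1 count. In NK cells they numbered 1 as reported, 3 under stricter gates, 2 without the top Scrublet scores, with no cell filter, without each top cell, with TMM scaling or without cycling cells, 0 at 30 expected counts and 4 at 1 count. In all T cells they numbered 4 as reported, 1 under stricter gates, with no cell filter, without each top cell, at 30 expected counts or without the 3 cells, 0 with 500 to 5000 genes and under 5% mitochondrial UMIs, 2 without cycling cells and 8 at 1 count. Higher limits on counts and thinning test fewer genes, and stricter gates drop the 3 cells. When thinned, 8 members were measured in CD4 T cells and 2 in CD8 αβ T cells. At 1 count 29 members were measured in CD4 T, CD8 αβ T, NK and all T cells, and the shares over all genes rose too. In CD8 αβ T cells 11 were then higher and 1 lower, beside 14.0% and 7.16% of all genes. In all T cells 6 were higher and 2 lower, beside 9.60% and 5.49%. For CD4 T cells these were 4 and 1, beside 7.55% and 8.11%.

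The median log2 ratio in CD4 T cells was 0.15 as reported, 0.029 without each top cell, -0.16 when thinned, 0.016 without cycling cells and 0.027 without the 3 cells. In CD8 αβ T cells it was 0.14 as reported, -0.086 under stricter gates, 0.011 with 500 to 5000 genes and under 5% mitochondrial UMIs, -0.073 without each top cell, 0.0073 with TMM scaling, -0.0069 without cycling cells, 0.032 at 30 expected counts, 0.39 at 1 count and -0.0037 without the 3 cells. In all T cells it was 0.09 as reported, -0.045 without cycling cells and -0.019 without the 3 cells. Summed target CPM in CKO cycling T cells was 4786 as reported, 4047 with at least 2 cycle genes, 5951 with at least 4, and 876 without the 3 cells. The share of cells in CKO over that in WT was 1.32 for B cells and 2.44 for NK cells over all kept cells, and 1.01 and 1.87 over cells other than gated T cells.

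Among ratios reported past 1.5-fold, Psrc1 crossed 1 in all T cells (0.507 under stricter gates, 0.390 without cycling cells, 0.197 without the 3 cells). It also crossed in CD4 T cells (0.816 without the top cell, 0.494 without the 3 cells). Cdkn1a crossed in all T cells (0.563 without cycling cells, 0.569 without the 3 cells) and in other T cells (0.531 without the top cell, 0.308 without cycling cells, 0.312 without the 3 cells). In all T cells under stricter gates, Cdkn1a (2.63, 0.798 to 7.75) and Phlda3 (3.296, 1.496 to 7.03) moved but did not cross. When thinned, Polk in CD4 T cells was 0.541 and Xpc in neutrophils 0.918. The Ddb2 ratio in NK cells, which rests on 4 WT UMIs, stayed above 2 in the alternatives in which Ddb2 was measured. Under stricter gates, when thinned to 1000 UMIs and at 30 expected counts it was not among the measured members past 1.5-fold. Small CKO classes limit depth: 85 CD8 αβ T cells left 13 of 31 members unmeasured, and differences in rare genes were not detectable there. The alternative without the 3 cells was chosen after seeing the data.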
